A study of Mus musculus with 6 samples.

Results

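The genes described here are targets of the tumour suppressor p53 and genes of the DNA damage response, in splenic natural killer (NK) cells. The cells came from mice with and without conditional deletion of Mettl3, the catalytic subunit of the complex that writes m6A on mRNA. The genes were taken by symbol from a list of 35 names, and 34 of these are among the 14490 genes of the deposited table. Eda2r is not listed there. The experiment compared WT mice (Mettl3fl/fl) with cKO mice (Ncr1Cre-Mettl3fl/fl), both on a C57BL/6 background, with 3 samples each and no treatment. Both genotypes carry the floxed Mettl3 allele, and the control carries no Cre. Effects of Cre or of its Ncr1 allele therefore cannot be told apart from those of Mettl3 loss. In cKO mice Cre is expressed from the Ncr1 locus, from a heterozygous allele (Ncr1Cre/+ in the methods), so that deletion starts in cells that express NKp46. The methods give an age of 6 to 10 weeks for all mice of the study and no age or number of mice per sample, so p-values measure the spread between these samples. Values are normalized counts, that is, read counts per gene divided by a size factor of the sample. Each value was a whole multiple of 1 step, the worth of 1 read, and 55965515 to 71464042 reads fell on the listed genes of a sample.

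In unstressed cells p53 is made continuously and kept low by Mdm2, which marks it for destruction, while Mdm4 holds back its activity as a transcription factor. After DNA damage, kinases such as ATM and ATR and their partners CHK1 and CHK2 release p53 from this control, and it then switches on genes for cell cycle arrest, DNA repair, cell death and metabolic adjustment. Mdm2 and the phosphatase Ppm1d are themselves p53 targets and close a negative feedback loop. Several genes of this group, among them Btg2, Gadd45b, Plk2, Plk3 and Ddit4, also respond to growth factor, cytokine or stress signals without p53.

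Genotype labels were checked first. The mean of Mettl3 was 1251 ± 56.0 normalized counts in WT samples and 334 ± 61.9 in cKO samples (SD, n = 3 each), and its log2 fold change was −1.92 (SE 0.0986, limma adjusted p = 2.32e-14). All 12 NK cell markers were listed, and 2 of them rose and 7 fell (75% called). Over all genes 36.6% were called, and 52.6% of those with a mean of at least 1000 normalized counts. Ncr1, whose locus carries the Cre, went from 22394 ± 286 to 16918 ± 230 normalized counts (SD, n = 3 each). Markers of B cells moved with genotype, 7 of 10 being higher in cKO and none lower (70% called). Their summed level was 1637 to 1660 normalized counts in WT and 2112 to 2162 in cKO. Of the myeloid markers 7 of 10 were listed, 4 higher and 1 lower (71.4% called). Their sums were 51328 to 53377 in WT and 54741 to 57170 in cKO. Itgax made up most of these sums, with 40864 ± 1305 normalized counts in WT samples and 43194 ± 500 in cKO samples (SD, n = 3). Lyz2, the 1 lower gene, went from 2186 ± 92.4 in WT to 1663 ± 176 in cKO (SD, n = 3). Of the T cell markers 9 of 10 were listed, 1 higher and 2 lower (33.3% called), with sums of 4277 to 4664 in WT and 4233 to 4485 in cKO. Lef1, the 1 higher gene, made up the largest part, with 2503 ± 86.7 in WT and 2751 ± 61.7 in cKO (SD, n = 3). Cd3g, 1 of the 2 lower genes, went from 802 ± 11.1 to 478 ± 23.4 (SD, n = 3). Of the erythroid markers 6 of 8 were listed and 0 called, with sums of 823 to 888 and 707 to 840. No listed marker was at 0 in any of these lists. Cd8b1, S100a8, S100a9, Mpo and Klf1 are among the markers without a value here.

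Of the 34 listed genes, 16 rose and 7 fell in cKO NK cells at a limma adjusted p under 0.05, and 11 did not pass. Over all genes tested, 36.6% passed, 17.8% upward and 18.8% downward. Of the p53 and damage genes 47.1% were called higher and 20.6% lower. The list was chosen with earlier results of these data known, so the difference in shares is no test of the group. The genes of this group are more abundant than most, with a median of 2767 normalized counts against 880 for all genes, and calls were more frequent at high counts. Among genes with a mean of at least 1000 normalized counts, 52.6% passed, 23.0% upward and 29.6% downward. Of the 25 p53 and damage genes above that level 9 rose and 7 fell. For 24 of the 34 genes the 3 cKO values lay all above or all below the 3 WT values, and the same held for 45.7% of all genes. Among genes with a mean of at least 1000 normalized counts it held for 59.7%, and for 17 of the 25 in this group. The median log2 fold change was 0.09 for these 34 genes and 0.00 for all genes.

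**Figure D1:**
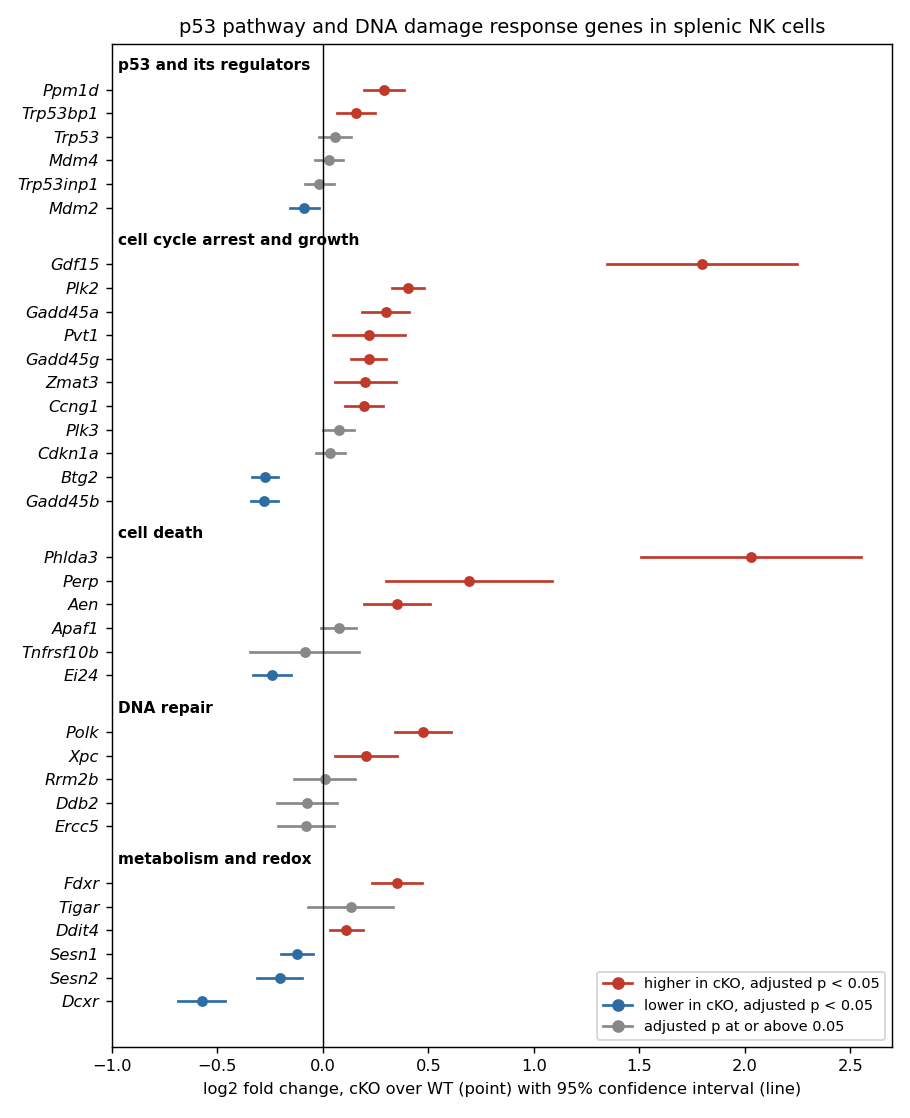
Log2 fold changes of the 34 genes, cKO over WT, by role. Points are limma estimates and lines their 95% confidence intervals, with red for 16 genes higher in cKO, blue for 7 lower and grey for 11 that did not pass an adjusted p of 0.05. Phlda3 and Gdf15 stand apart at 2.03 and 1.80, and 19 of the 23 called genes lie within 0.5 of 0.

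Most changes were small. For 19 of the 23 called genes the log2 fold change stayed below 0.5 in either direction, and only Phlda3 and Gdf15 exceeded 1. The study's own limits were an unadjusted P under 0.05 and a change of more than 1 on the log2 scale, by DESeq2. Applied here to the limma values, they were met in the group by Phlda3 and Gdf15 only, and by 1.75% of all genes. Replicates lay close together, with a median coefficient of variation over the 34 genes of 4.12% in WT and 3.84% in cKO. The widest were Phlda3 in WT with 37.1% and Gdf15 in cKO with 20.5%, both at low counts.

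Sequence elements that p53 binds are pairs of decamers of a known consensus. They are shown here because most of the group is defined by direct control through such elements. RefSeq promoters (GRCm38.p6, 250 bases before to 50 bases after the annotated start) were at hand for 26 of the 34 genes, Phlda3 and Gdf15 among them, and were searched for the p53 consensus element of 20 bases with no spacer, with the C and G at the core of each decamer required and up to 3 mismatches elsewhere. The element reads as its own reverse complement, so the search covers both strands. Of the 26 genes, 6 (23.1%) held a match, against 1.86% of the 9908 genes of the table with a promoter. With at most 1 mismatch the numbers were 2 of 26 (7.69%) and 0.0807%. Since the group was put together from p53 targets, a higher share follows from the choice of genes and is no test. Elements with a spacer or outside these windows were not searched. Capitals mark the matched element and lower case 5 bases on either side, 5′ to 3′ on the strand of the gene.
Cdkn1a: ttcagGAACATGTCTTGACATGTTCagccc
Ccng1: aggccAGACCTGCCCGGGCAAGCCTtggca
Trp53: cggaaGGACTTGCCCTTACTTGTTAtggcg
Aen: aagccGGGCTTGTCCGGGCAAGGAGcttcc
Sesn1: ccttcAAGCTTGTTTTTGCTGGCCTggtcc
Tigar: gcggcGGTCTAGCTCTGGCAAGACTccagg

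The Cdkn1a stretch (chr17:29090923-29090952, plus strand) and the Ccng1 stretch (chr11:40755457-40755486, minus strand) each had 1 mismatch, and their elements began 51 and 195 bases before the start. The other elements had 3 mismatches. They lie at chr11:69580279-69580308 (plus strand) for Trp53, chr7:78895932-78895961 (plus) for Aen, chr10:41887261-41887290 (plus) for Sesn1 and chr6:127109741-127109770 (minus) for Tigar. Aen has 2 annotated starts, and its element began 121 bases before the downstream one and just inside the gene from the upstream one. Genes with a match did not share a direction. Aen and Ccng1 rose, Sesn1 fell, and Cdkn1a, Trp53 and Tigar did not pass the test. No match was found in the windows of Phlda3 and Gdf15, which says only that these letters are not there. A match is a likeness of letters, and binding of p53 was not measured. Promoters of Trp53inp1, Zmat3, Pvt1, Perp, Tnfrsf10b, Ddb2, Xpc and Rrm2b were not searched.

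Trp53 itself, which encodes p53, differed little. WT samples 1, 2 and 3 held 4656, 4756 and 4681 normalized counts, and cKO samples 1, 2 and 3 held 4949, 4827 and 4888. Values of other genes are given in the same order. All 3 cKO values lay above the WT values, by a log2 fold change of 0.06 (95% confidence interval −0.02 to 0.13, limma adjusted p = 0.25). With samples scaled to equal totals, which moves the median of all genes up to 0.05, the value was 0.11 and passed (adjusted p = 0.0235). Trp53 was the steadiest gene of the group in WT, with a coefficient of variation of 1.11%.

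The negative regulators of p53 did not move together. Mdm2, the ubiquitin ligase that targets p53, had 14410, 13401 and 13469 normalized counts in WT and 12957, 12960 and 12898 in cKO. It fell by 0.09 on the log2 scale (SE 0.033, limma adjusted p = 0.04), the smallest of the called changes. That call was lost with samples scaled to equal totals (−0.04, adjusted p = 0.374) and without WT sample 1 (−0.05, adjusted p = 0.244), and also without cKO samples 1, 2 or 3 in turn (−0.09 in each, with adjusted p-values of 0.101, 0.0675 and 0.0883). Mdm4, its relative that inhibits p53 without marking it for destruction, averaged 14584 ± 577 in WT samples against 14868 ± 103 in cKO samples (SD, n = 3), with a log2 fold change of 0.03 (95% confidence interval −0.04 to 0.10, adjusted p = 0.545). Ppm1d, the phosphatase WIP1 that shuts off p53 and ATM signalling, rose. It went from 3329, 3416 and 3780 normalized counts in WT to 4283, 4409 and 4139 in cKO, a log2 fold change of 0.29 (SE 0.046, limma adjusted p = 1.6e-05), and its groups did not overlap.

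A pair of p53 partners completes this set. Trp53bp1, the chromatin reader 53BP1 that gathers at DNA breaks, rose from 3112 ± 109 to 3471 ± 81.1 normalized counts (SD, n = 3), which is 0.16 on the log2 scale (limma adjusted p = 0.00496). Its exons share 2130 bases with Tubgcp4 on the opposite strand, and the library kit does not keep strand, so reads from that stretch cannot be told apart. Trp53inp1, a stress-induced nuclear protein that promotes p53 activity, had a log2 fold change of −0.02 (95% confidence interval −0.09 to 0.05, adjusted p = 0.727).

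Cdkn1a, the cyclin-dependent kinase inhibitor p21 and the best known p53 target, did not pass the test. Its values were 16755, 18200 and 17238 normalized counts in WT and 17611, 18362 and 17473 in cKO, and the ranges overlapped. The log2 fold change was 0.03 (95% confidence interval −0.03 to 0.10, limma adjusted p = 0.461), and with equal totals 0.08 (adjusted p = 0.0405). The interval ends far below the changes of Phlda3 and Gdf15. Cdkn1a was also well expressed, at the 95.7th percentile of all genes in normalized counts per kilobase of exon.

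Other genes of cell cycle arrest and growth mostly rose. Of the 11 genes in this set 7 rose, 2 fell and 2 did not pass. The share called was 81.8%, against 36.6% of all genes and 52.6% of those with a mean of at least 1000 normalized counts. Ccng1, cyclin G1, whose promoter element is printed above, had 3549, 3404 and 3206 normalized counts in WT and 3860, 3884 and 3872 in cKO, a log2 fold change of 0.19 (SE 0.043, limma adjusted p = 0.000765). Its cKO samples lay within a narrow band above all WT samples. Zmat3, a p53-induced RNA-binding zinc finger protein, had a log2 fold change of 0.20 (adjusted p = 0.0256), and the noncoding RNA Pvt1, a neighbour of Myc, 0.22 (adjusted p = 0.0388). Both calls were lost without WT sample 1 (0.19 and 0.24), WT sample 2 (0.15 and 0.15), cKO sample 2 (0.19 and 0.19) or cKO sample 3 (0.19 and 0.20).

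Gdf15, a secreted stress cytokine of the TGF-β superfamily, showed the second largest rise of the group. It had 41.7, 58.3 and 63.4 normalized counts in WT and 148, 202 and 225 in cKO, which stand for 42, 49 and 65 reads against 146, 222 and 246 reads. The lowest cKO sample held more than 2 times the highest WT sample. Its log2 fold change was 1.80 (SE 0.219, limma adjusted p = 2.72e-07), or 3.47-fold, and lay between 1.62 and 1.97 when any 1 sample was omitted. The Gdf15 gene is at chr8:70629393-70632456 (minus strand). At 66.5 normalized counts per kilobase of exon it stood at the 29.0th percentile of all genes.

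The 3 Gadd45 genes, small stress sensors that bind p21, PCNA and stress kinases, divided. Gadd45a, the classical p53 target among them, rose from 2343, 2565 and 2373 normalized counts in WT to 2981, 3251 and 2741 in cKO, a log2 fold change of 0.30 (SE 0.054, limma adjusted p = 7.86e-05). Gadd45g rose from 6111 ± 233 to 7113 ± 373 (SD, n = 3), a log2 fold change of 0.22 (adjusted p = 9.88e-05). Gadd45b, which in lymphocytes follows NF-κB and TGF-β signals, fell from 77473, 82315 and 80138 to 65369, 67590 and 65004 normalized counts, a log2 fold change of −0.28 (SE 0.03, adjusted p = 4.89e-08). None of these groups overlapped. The log2 ratio of Gadd45a to Gadd45b within a sample, which no scaling between samples can move, measured −5.04 ± 0.037 in WT and −4.47 ± 0.096 in cKO (SD, n = 3 each), a difference of 0.58 (p = 0.1 by a two-sided exact permutation test, which cannot go lower with 3 samples against 3). This pair was chosen after values were seen. Its ratio had to separate, since Gadd45a rose and Gadd45b fell without overlap, so it is no further test. Part of Gadd45a, 337 bases of exon, overlaps a gene on the opposite strand.

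Btg2, an antiproliferative cofactor of the CCR4-NOT deadenylase, was the most abundant gene of the group. It had 177594, 184761 and 177476 normalized counts in WT and 147672, 151848 and 146515 in cKO, a fall of 0.275 on the log2 scale (SE 0.03, limma adjusted p = 4.66e-08). Per kilobase of exon Btg2 and Gadd45b stood at the 99.7th and 99.6th percentiles of all genes. The polo-like kinase Plk2 rose from 6576, 6290 and 6179 to 8196, 8613 and 8388 normalized counts, a log2 fold change of 0.40 (SE 0.036, adjusted p = 1.36e-09). Plk3, its stress-responsive relative, had 13657 ± 636 and 14368 ± 291 normalized counts (SD, n = 3) and a log2 fold change of 0.07 (95% confidence interval 0.00 to 0.15, adjusted p = 0.0987). It passed with equal totals (0.12, adjusted p = 0.00716) and without WT sample 3 (0.11, adjusted p = 0.0223). The log2 ratio of Plk2 to Plk3 within a sample rose from −1.10 ± 0.11 in WT to −0.77 ± 0.064 in cKO (SD, n = 3), without overlap (p = 0.1 by the same exact test). This pair was also chosen after values were seen.

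Immediate early genes, with which Btg2, Gadd45b, Plk2 and Plk3 are often induced, were abundant in all 6 samples. Of 20 such genes 7 were higher in cKO, 6 lower and 7 not called (65% called, against 36.6% of all genes). Their summed level was 3283780 to 3355931 normalized counts in WT and 3466286 to 3568134 in cKO. Their part in the changes of Btg2, Gadd45b and Plk2 was not tested.

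**Figure D2:**
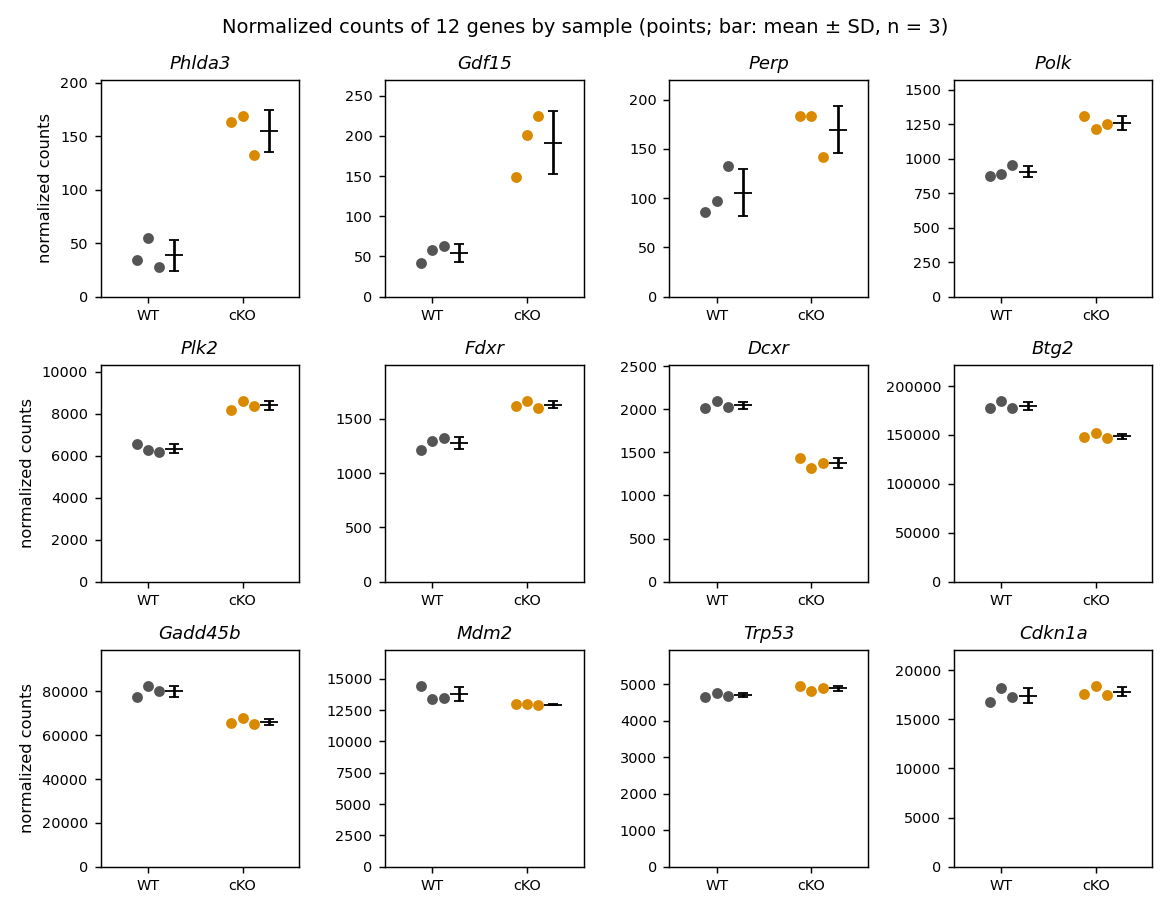
Normalized counts of 12 genes in each sample, on linear axes from 0. Points are the 3 WT and 3 cKO samples and the bar beside them the mean ± SD (n = 3). The genotypes are far apart for Phlda3 and Gdf15, clearly separate for Polk, Plk2, Fdxr, Dcxr, Btg2 and Gadd45b, and overlap for Cdkn1a.

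Among the genes of cell death 3 rose, 1 fell and 2 did not pass (66.7% called, against 36.6% of all genes). Phlda3, a pleckstrin homology protein that competes with AKT for membrane lipids, rose most of the whole group. Its values were 33.8, 54.7 and 27.3 normalized counts in WT and 164, 169 and 133 in cKO, from 34, 46 and 28 reads against 161, 186 and 145. Each cKO sample held more than 2 times the highest WT sample. The log2 fold change was 2.03 (SE 0.254, 95% confidence interval 1.51 to 2.55, limma adjusted p = 4.24e-07), a 4.09-fold rise, and lay between 1.82 and 2.31 with each sample left out. The Phlda3 gene is at chr1:135766119-135769136 (plus strand). It averaged 62.1 normalized counts per kilobase of exon, near Gdf15.

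Perp, a desmosomal membrane protein induced by p53 in apoptosis, rose from 86.4, 97.6 and 133 to 183, 184 and 142 normalized counts, a log2 fold change of 0.69 (SE 0.191, limma adjusted p = 0.00544). The gap between the highest WT and the lowest cKO sample was narrow. The nuclease gene Aen rose from 649, 727 and 747 to 945, 901 and 861 normalized counts, a log2 fold change of 0.35 (SE 0.076, adjusted p = 0.000612). Phlda3, Gdf15 and Perp had the 3 lowest counts of the group and the 3 largest rises. Of 10 B cell markers 7 were higher, among them Cd79a, which was more abundant than these 3 genes. Cd79a had 201 ± 32.4 normalized counts in WT samples and 334 ± 56.7 in cKO samples (SD, n = 3), a log2 fold change of 0.72. Cd79b, with 135 ± 33.8 and 137 ± 18.7 (SD, n = 3), Bank1 and Ebf1 were not called. The part of B cells in the rises of Phlda3, Gdf15 and Perp was not tested. In bulk samples a change in RNA per cell and a change in the share of cells that express a gene cannot be told apart.

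Ei24, an endoplasmic reticulum protein named for its induction by p53, went the other way. It fell from 3032, 3166 and 2984 normalized counts in WT to 2542, 2667 and 2559 in cKO, a log2 fold change of −0.24 (SE 0.045, limma adjusted p = 0.00011). Apaf1, the scaffold of the apoptosome, averaged 3681 ± 57.3 in WT samples and 3876 ± 34.7 in cKO samples (SD, n = 3). Its cKO values were all above WT, with a log2 fold change of 0.07 (95% confidence interval −0.01 to 0.16, adjusted p = 0.153), which passed with equal totals (0.12, adjusted p = 0.0137). The TRAIL receptor gene Tnfrsf10b had 291 ± 36.9 and 272 ± 10.5 normalized counts (SD, n = 3), and its interval of −0.34 to 0.17 leaves room for a modest change in either direction.

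Among the 5 DNA repair genes, Polk and Xpc rose and none fell (40% called, against 36.6% of all genes). Polk, the translesion DNA polymerase κ, had 876, 890 and 951 normalized counts in WT and 1310, 1215 and 1248 in cKO, a log2 fold change of 0.47 (SE 0.065, limma adjusted p = 1.72e-06). It was the fourth largest rise of the group, and its samples separated widely. Xpc, which recognizes damage in global nucleotide excision repair, went from 827 ± 20.7 to 954 ± 63.7 (SD, n = 3), a log2 fold change of 0.20 (adjusted p = 0.0252). The Xpc call was lost without WT sample 1 (0.20, adjusted p = 0.0532), WT sample 2 (0.19, adjusted p = 0.0702) or cKO sample 2 (0.15, adjusted p = 0.151).

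Other genes of the repair set did not pass. Ddb2, the partner of Xpc in finding ultraviolet damage, had a log2 fold change of −0.08 (95% confidence interval −0.22 to 0.07, adjusted p = 0.436). Ercc5, the nuclease XPG that cuts beside the lesion, had −0.08 (−0.21 to 0.05, adjusted p = 0.354). Rrm2b, the p53-inducible subunit of ribonucleotide reductase, had 0.01 (−0.14 to 0.15, adjusted p = 0.941), with 1138, 1427 and 1356 normalized counts in cKO around a WT range of 1251 to 1331. Exons of Ddb2 share 652 bases with Acp2 and those of Rrm2b 734 bases with Gm49085, each on the opposite strand.

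Metabolic and redox genes moved in both directions, 2 higher and 3 lower of 6 (83.3% called, against 36.6% of all genes). Dcxr, a dicarbonyl and L-xylulose reductase, fell most of the whole group. It went from 2018, 2095 and 2020 normalized counts in WT to 1429, 1317 and 1372 in cKO, a log2 fold change of −0.58 (SE 0.054, limma adjusted p = 2.81e-09), or 0.671 of the WT level. Fdxr, the mitochondrial ferredoxin reductase that supplies electrons for iron-sulfur cluster and steroid synthesis, rose from 1214, 1296 and 1324 to 1622, 1665 and 1605, a log2 fold change of 0.35 (SE 0.057, adjusted p = 1.88e-05). Neither gene's samples overlapped.

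Sesn1 and Sesn2, of the sestrins that restrain mTORC1 when leucine is short, fell. The other sestrin gene, Sesn3, which belongs to the further p53 targets given later, had a log2 value of −0.03 for cKO over WT (adjusted p = 0.503). Sesn2 went from 2797, 2915 and 2865 normalized counts in WT to 2652, 2551 and 2260 in cKO, a log2 fold change of −0.20 (SE 0.052, limma adjusted p = 0.00276). Sesn1 went from 7630 ± 100 to 7006 ± 298 (SD, n = 3), a log2 fold change of −0.12 (adjusted p = 0.00907). The Sesn1 call was lost with equal totals (−0.07, adjusted p = 0.0967) and without cKO sample 1 (−0.10, adjusted p = 0.0893). Ddit4, or REDD1, which also restrains mTORC1, moved the other way. It had 8397, 9124 and 8772 normalized counts in WT and 9951, 9435 and 9023 in cKO, a log2 fold change of 0.11 (SE 0.039, adjusted p = 0.0249). It was the only called gene whose groups overlapped, and the call was lost without WT sample 1 (0.08, adjusted p = 0.144) or cKO sample 1 (0.08, adjusted p = 0.206). Tigar, a fructose bisphosphatase that spares glucose for the pentose phosphate pathway, had a log2 fold change of 0.13 (95% confidence interval −0.07 to 0.33, adjusted p = 0.323).

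**Figure D3:**
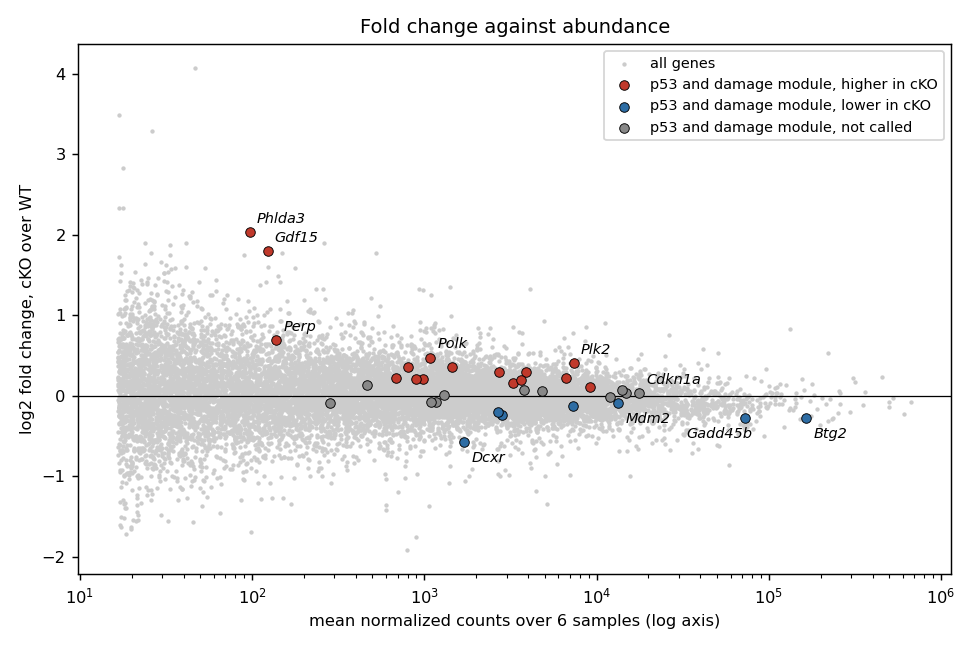
Log2 fold change, cKO over WT, against mean normalized counts over the 6 samples on a log axis. Grey dots are all 14490 genes and large points the 34 p53 and damage genes. Phlda3, Gdf15 and Perp rise at low counts, while Btg2 and Gadd45b fall at the high end.

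Levels within the group spanned a wide range. Per kilobase of exon, the order ran from Btg2 with 59902 and Gadd45b with 45929 normalized counts down to Phlda3 with 62.1 and Tnfrsf10b with 51.7. Gadd45g, Plk3, Ddit4 and Cdkn1a followed the leading pair at 5637, 5536, 5195 and 4955. Mdm2 stood at 2626, Trp53 at 1185 and Mdm4 at 995. The median of the 34 genes was 675 normalized counts per kilobase, against 237 for all genes.

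Genes outside the group were taken from lists of the same pathway. Of 29 listed further p53 targets, 9 were higher and 8 lower in cKO, and the median log2 fold change was −0.03. The share called was 58.6%, against 36.6% of all genes. The largest rises among genes of at least 1 CPM were those of the cytokine gene Lif with 0.62 (limma adjusted p = 0.00181), the mitotic gene Ckap2 with 0.57 (adjusted p = 0.000472) and the pore-forming death effector Bax with 0.34 (adjusted p = 4.06e-07). The largest falls were those of the death receptor Fas with −0.87 (adjusted p = 7.65e-10), the 14-3-3σ gene Sfn with −0.60 (adjusted p = 4.04e-10) and the autophagy regulator Dram1 with −0.54 (adjusted p = 0.0167). Bbc3, which encodes the BH3-only protein PUMA, fell by 0.17 on the log2 scale (adjusted p = 8.43e-05) while Bax rose. The log2 ratio of Bax to Bbc3 within a sample was −2.77 ± 0.039 in WT and −2.26 ± 0.083 in cKO (SD, n = 3), without overlap (p = 0.1 by the same exact test). Like the Gadd45 and Plk pairs, this pair was chosen after its values were seen. Its ratio had to separate, since Bax rose and Bbc3 fell without overlap.

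Of 33 listed genes that sense damage or act on p53, 14 were higher and 4 lower, with a median of 0.10. The share called was 54.5%, against 36.6% of all genes. Chek2, the kinase CHK2 downstream of ATM, went from 149 ± 13.0 to 246 ± 16.5 normalized counts (SD, n = 3), a log2 fold change of 0.72 (SE 0.147, limma adjusted p = 0.000318). Clspn, the claspin adaptor of CHK1 activation, had 0.43 (adjusted p = 0.000108) and Rad50, an arm of the break-sensing MRN complex, 0.42 (adjusted p = 7.46e-07). The largest falls were those of the p53 ubiquitin ligase Rchy1 with −0.27 (adjusted p = 6.82e-06), Nbn, another MRN subunit, with −0.26 (adjusted p = 0.000372) and the acetyltransferase Kat5 with −0.24 (adjusted p = 5.25e-05). Rad50 and Nbn, which work in the same complex, thus moved in opposite directions.

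Of 42 DNA repair enzymes 12 were higher and 3 lower, with a median of 0.06. Lig4, the ligase of nonhomologous end joining, rose from 107 ± 10.8 to 219 ± 23.5 normalized counts (SD, n = 3), a log2 fold change of 1.03 (SE 0.166, limma adjusted p = 1.81e-05). Palb2 and Brca1 of homologous recombination had 0.45 (adjusted p = 0.0142) and 0.41 (adjusted p = 0.000666). Ercc1 had −0.24 (adjusted p = 0.0121), Parp2 −0.19 (adjusted p = 0.00495) and Rad23b −0.13 (adjusted p = 0.00244). The share called, 35.7%, was close to the 36.6% of all genes, and the count of higher genes was 7 without WT sample 2, that of lower genes 1 without cKO sample 3.

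**Figure D4:**
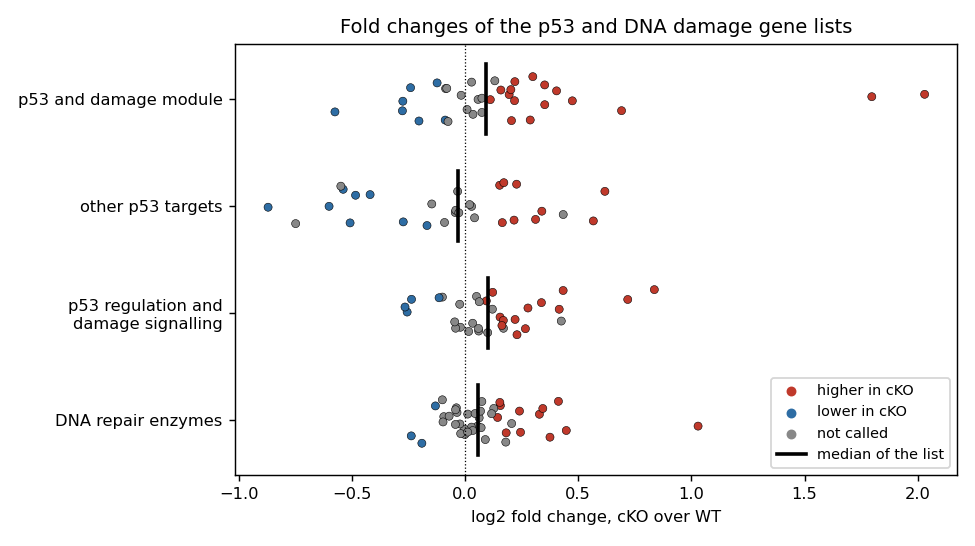
Log2 fold changes of the genes in the 4 lists, cKO over WT, with each gene a point (red higher, blue lower, grey not called) and the black bar the median of its list. The medians, 0.09, −0.03, 0.10 and 0.06 from top to bottom, lie close to 0, and Phlda3, Gdf15 and Lig4 lie past 1.

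METTL3 methylates adenosine within a short motif a common form of which in DNA letters is GGACT, and its frequency was counted on the sense strand of the longest GENCODE transcript of each gene. The median was 1.15 motifs per kilobase for the 34 genes and 1.01 for all genes. Within the group it was 1.18 for the 16 genes that rose, 1.31 for the 7 that fell and 0.944 for the 11 that did not pass. Gadd45g had the highest frequency with 3.73. Dcxr, the gene that fell most, and Plk3 held none, as did 11.5% of all genes. Phlda3 and Gdf15 held 2 motifs each. These are counts of letters, and methylation of these transcripts was not analysed here.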

How the data were processed

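The mRNA of sorted splenic NK cells was sequenced in 3 samples per genotype. For the deposited table, the authors used Hisat2 for alignment to GRCm38, featureCounts for read counts per gene and DESeq2 for normalization (2.0.5, 1.5.0-p3 and 1.16.1 in the submitters' processing notes, and other versions in the methods). The 6 sample columns deposited by the authors are a signal, counts divided by DESeq2 size factors. Columns with the authors' mean, log2 fold change, its standard error and Wald statistic (a score), p-value and adjusted p-value were not used. Strand use in counting is not given in the sources used here.

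Here log2(value + 1) was compared between genotypes by the two-sided moderated test of limma 3.58.1 (R 4.3.3, trended variance), and p-values were adjusted by Benjamini-Hochberg over 14490 genes. The filter (at least 1 in at least 3 samples) removed 0 genes. Fold changes are on the log2(value + 1) scale, which understates changes at low counts. The fit was tested on simulated data. All values were whole multiples of 1 step per sample (tolerance 0.01 reads), from which reads were derived. Read counts carry counting error beside the spread between samples. Positions and exon lengths are from GENCODE M21 (GRCm38), in which 97.2% of names matched uniquely, all 34 genes included. Of the 34 genes 9 share exonic bases with another gene, so that their reads are partly uncertain (beside those named with their result, 450 bases of Pvt1, 324 of Ei24, 273 of Cdkn1a, 122 of Tigar and 84 of Plk3).

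All genes of the group are named. Beyond them the 3 largest rises and falls in each of 3 pathway lists are named (adjusted p under 0.05 and a mean of at least 1 CPM), with Mettl3 and Ncr1. Sesn3, Bbc3 and the B cell markers Cd79a, Cd79b, Bank1 and Ebf1 were named outside this rule. The same holds for the myeloid markers Itgax and Lyz2 and the T cell markers Lef1 and Cd3g. Members and lists were chosen with earlier results of these data known, and the level of 1000 normalized counts and the within-sample ratios were chosen after values were seen. Alternatives were a pseudocount of 0.1, filters, equal totals, limma-voom, the replicate block, each sample left out and the study's rule.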

Additional observations from a re-analysis of the deposited data

How the results depend on the processing

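Of the 23 called genes of the group, 17 (12 higher and 5 lower) kept call and direction under all 12 alternative fits. The replicate block, a pseudocount of 0.1, and either no filter or a minimum of 1 CPM changed no call among the 34 genes. With equal totals 20 rose and 5 fell, and limma-voom, which also scales to totals, gave the same counts. The median log2 fold change of the group was then 0.142 under both, and the calls over all genes became 3487 higher and 2016 lower, in place of 2576 and 2731. Trp53inp1 changed sign under both (0.032 each). With each sample left out, 12 to 17 genes rose and 5 to 7 fell, the group median lay from 0.0792 to 0.11, DNA repair enzymes higher from 7 to 10 and lower from 1 to 3. Signs changed without WT sample 2 for Mdm4 (−0.0036, and up to 0.052 with other samples left out), Trp53inp1 (0.012, and down to −0.0415) and Tnfrsf10b (0.0052, and down to −0.177), and for Rrm2b without WT sample 3 (−0.015), cKO sample 2 (−0.058) or cKO sample 3 (−0.022). None of these genes was called.

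The study's rule, which adds a fold change limit, was applied to the limma values and not to those of DESeq2. The counts were then 2 higher and 0 lower in the group and 254 over all genes. They were 0 and 0 for other p53 targets, 0 and 0 for p53 regulation and damage signalling, and 1 and 0 for DNA repair enzymes. Same-numbered samples did not deviate together (correlations of −0.04, 0.056 and 0.038 for numbers 1, 2 and 3), so the numbers were not taken as pairs. With the replicate block 16 genes of the group rose and 7 fell, as without it, and 5543 genes were called in all. The planned count models on reads were not run, since the unit check used here did not accept the recovered reads. That check took the smallest positive value of a sample as 1 read, which did not hold in every sample. With 3 samples per genotype, small changes of low genes such as Tnfrsf10b and Tigar were not detectable.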
